A study of Mus musculus with 6 samples.

Results

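The regions described here are open intergenic elements without histone acetylation near genes, in TrkC-lineage neurons of the mouse dorsal root ganglion at stage E11.5. Open chromatin was mapped by ATAC-seq (assay for transposase-accessible chromatin), and H3K27ac, the acetyl mark on lysine 27 of histone H3, by ChIP-seq, in GFP-positive cells sorted from fixed ganglia of Runx3-BAC-GFP-CB6 transgenic mice, 50000 cells per preparation. The 6 samples are 2 each of H3K27ac ChIP, ATAC and input, and all of them carry the Runx3 bacterial artificial chromosome (BAC), so reads from the transgene and from the endogenous Runx3 locus cannot be told apart. An element was selected on measured values: it is an ATAC peak whose midpoint lies outside every RefSeq protein-coding gene, over 1 kb and up to 100 kb from the nearest gene end, and which shares 0 bp with any H3K27ac peak. Of 43652 ATAC peaks on chromosomes 1 to 19, X and Y, 8873 met this rule (20.3%, 95% Wilson interval 19.95 to 20.71%). They were 83.3% of the 10648 ATAC peaks at these positions (interval 82.6 to 84.0%), and the other 1775, which overlapped H3K27ac, are called acetylated peaks below. The missing acetylation and the position are what the rule used, so they are descriptions and not findings. Each element stands on the ATAC list and clear of the H3K27ac list, as its name says.

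H3K27ac is deposited by the acetyltransferases p300 and CBP and marks active enhancers and promoters. In many cell types, open chromatin far from genes without this mark includes insulators bound by the factor CTCF, enhancers that are primed or silent, and genes transcribed by RNA polymerase III. In the embryo, genes of developmental transcription factors often lie in long intergenic stretches that hold enhancers used in other tissues.

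The deposited data are 1 consensus list of positions per assay, of 43739 ATAC and 19928 H3K27ac peaks. No signal, count or p-value was attached to a peak, so the depth of each sample is unknown here, the spread between replicates cannot be shown and no difference below was tested. Intervals of shares cover counting error only. As a check of the sorted cells, 6 of 8 sensory neuron markers had H3K27ac at a gene end (all but Ntrk3 and Runx3), as had 5 of 6 markers of glia and neural crest. Of all genes, 49.3% had H3K27ac and 60.4% had ATAC at an end. The markers are few, and the check does not tell neurons from glia. None of the markers of endothelium (0 of 4), muscle and sclerotome (0 of 4), blood (0 of 3) or spinal cord (0 of 5) had H3K27ac at an end. ATAC was at an end of 1 of 4, 3 of 4, 1 of 3 and 4 of 5 of these. In the longer gene lists below, H3K27ac was at an end of 1 of 17 endothelial, 5 of 20 muscle and sclerotome and 2 of 15 blood genes. The same held for 2 of 22 dorsal and 2 of 20 ventral spinal cord genes. It held for 10 of 19 genes of glia and neural crest (52.6%), near the share of all genes. Among the neuronal lists, it held for 19 of 22 pan-neuronal and 19 of 23 sensory transcription factor genes. It also held for 10 of 14 mechanoreceptor genes, but for only 5 of 16 proprioceptor and 3 of 16 nociceptor and thermoreceptor genes. Inside Ntrk3 and Runx3 lay 4 and 3 H3K27ac peaks.

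The elements whose letters could be read lie at starts of long noncoding RNA (lncRNA) genes, because RefSeq promoter windows, from 250 bp before to 50 bp after a start, were the available mouse sequence. A lncRNA window was overlapped by 220 of the 8644 elements on the chromosomes that the window table covers (2.55%, interval 2.23 to 2.90%), against 157 of 1708 acetylated peaks (9.19%, interval 7.91 to 10.7%). No coding window was overlapped, as the 1 kb limit requires. The sequences shown are the parts of elements that share at least 150 bp with a lncRNA window and whose nearest coding gene is a developmental regulator of the gene lists. Those genes are Meis2 (homeobox factor of touch neurons and neural progenitors), Mef2c (muscle and neuronal factor), Zic1 (zinc finger factor of the dorsal neural tube), Tbx3 (T-box factor of limb and heart) and Nkx2-2 (homeobox factor of the ventral neural tube). Capitals mark the motifs searched on both strands: GGGCGG for SP and KLF factors, CAGCTG for E-box factors, TGANTCA for AP-1, TGTGGT for RUNX factors, TAATTA for homeobox factors and CCANNAGGG as a CTCF core. Only these exact letters were searched, so a site that varies at a fixed letter, also one for CTCF, was not counted. The letters are from RefSeq (GRCm38.p6), 5′ to 3′ on the strand of the lncRNA.
2810405F15Rik, chr2:116076047-116076282, minus strand: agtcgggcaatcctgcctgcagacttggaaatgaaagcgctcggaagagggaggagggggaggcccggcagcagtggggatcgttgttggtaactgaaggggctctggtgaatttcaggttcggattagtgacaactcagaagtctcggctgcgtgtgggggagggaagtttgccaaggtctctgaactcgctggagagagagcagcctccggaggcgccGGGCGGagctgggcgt
C130071C03Rik, chr13:83721131-83721336, plus strand: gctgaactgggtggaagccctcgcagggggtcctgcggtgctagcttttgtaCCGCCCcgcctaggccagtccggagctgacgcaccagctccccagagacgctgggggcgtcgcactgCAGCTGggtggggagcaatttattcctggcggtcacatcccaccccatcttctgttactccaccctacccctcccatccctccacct
Gm40545, chr9:91350916-91351120, plus strand: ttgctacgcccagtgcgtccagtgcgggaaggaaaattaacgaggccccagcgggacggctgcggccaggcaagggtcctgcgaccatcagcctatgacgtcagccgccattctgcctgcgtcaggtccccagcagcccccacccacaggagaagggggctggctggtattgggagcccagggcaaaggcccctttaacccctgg
Tbx3os2, chr5:119691188-119691383, minus strand: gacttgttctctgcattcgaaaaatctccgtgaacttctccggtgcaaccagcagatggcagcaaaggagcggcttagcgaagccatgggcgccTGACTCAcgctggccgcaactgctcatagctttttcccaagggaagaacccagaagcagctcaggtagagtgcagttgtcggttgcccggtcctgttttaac
Gm39955, chr2:147256807-147257000, minus strand: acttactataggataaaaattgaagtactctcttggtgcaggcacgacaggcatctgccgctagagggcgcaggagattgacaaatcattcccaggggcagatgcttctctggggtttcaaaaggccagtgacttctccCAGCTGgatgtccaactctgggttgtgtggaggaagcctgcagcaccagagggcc

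The element at 2810405F15Rik, 8597 bp from Meis2, held 1 SP and KLF motif, and its shared part had 60.6% G and C. The one at C130071C03Rik, 54050 bp from Mef2c, held both an SP and KLF motif and an E-box in the 206 bp read of its 415 bp, at 64.6% G and C. The element at Gm40545, 7061 bp from Zic1, held no searched motif in the 205 bp that could be read of its 247 bp, at 65.4% G and C. The element at Tbx3os2, 6561 bp from Tbx3, held 1 AP-1 motif, at 54.6% G and C. The one at Gm39955, 61465 bp from Nkx2-2, held 1 E-box, at 53.1% G and C, and lay 242433 bp from any H3K27ac peak.

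Elements at lncRNA starts had more G and C than lncRNA starts in general, and somewhat less than acetylated peaks there. Over the 117 windows with at least 150 bp shared with an element, the median was 57.3% G and C in the whole window (quartiles 53.7 and 62.0%), against 60.0% over 127 windows of acetylated peaks and 48.3% over all 11587 lncRNA windows. The observed-to-expected ratio of CpG was 0.434 in windows of elements, 0.694 in windows of acetylated peaks and 0.245 in all windows. The SP and KLF motif was in 50.4% of the windows of elements, 63.0% of those of acetylated peaks and 16.3% of all. The E-box was in 28.2%, 19.7% and 17.7%, the AP-1 motif in 6.84%, 8.66% and 9.31%, and the CTCF core in 10.3%, 15.0% and 5.88% of these windows. The shares for CTCF count the exact core letters and leave out variant sites. The RUNX motif stood in 17.9% of the windows of elements, 19.7% of those of acetylated peaks and 20.05% of all. The homeobox motif was in 1.71%, 1.57% and 6.68%. CCANNAGGG and GGGCGG differ in base composition from TAATTA, and the part of composition in these shares was not tested.

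The elements were narrow. Their median width was 152 bp (quartiles 121 and 218 bp, range 87 to 1336 bp), against 281 bp for acetylated peaks (quartiles 192 and 399 bp). Together they covered 1.64 Mb. Peaks over 300 bp were 10.5% of the elements (interval 9.87 to 11.1%) and 45.9% of the acetylated peaks (interval 43.6 to 48.2%). Peaks over 500 bp were 1.183% of the elements and 12.4% of the acetylated peaks. The unacetylated share of near-gene intergenic peaks was 96.3% up to 120 bp (interval 95.5 to 97.0%), 92.5% up to 160 bp, 86.6% up to 220 bp, 77.1% up to 300 bp, 58.1% up to 500 bp and 32.3% above that (interval 27.5 to 37.6%), lower in each wider class. A wider peak has more bases that can overlap, and the part of this in the trend was not tested. Unacetylated peaks elsewhere had similar widths, with medians of 159 bp inside genes (11408 peaks) and 157 bp between genes beyond 100 kb (2155 peaks).

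**Figure D1:**
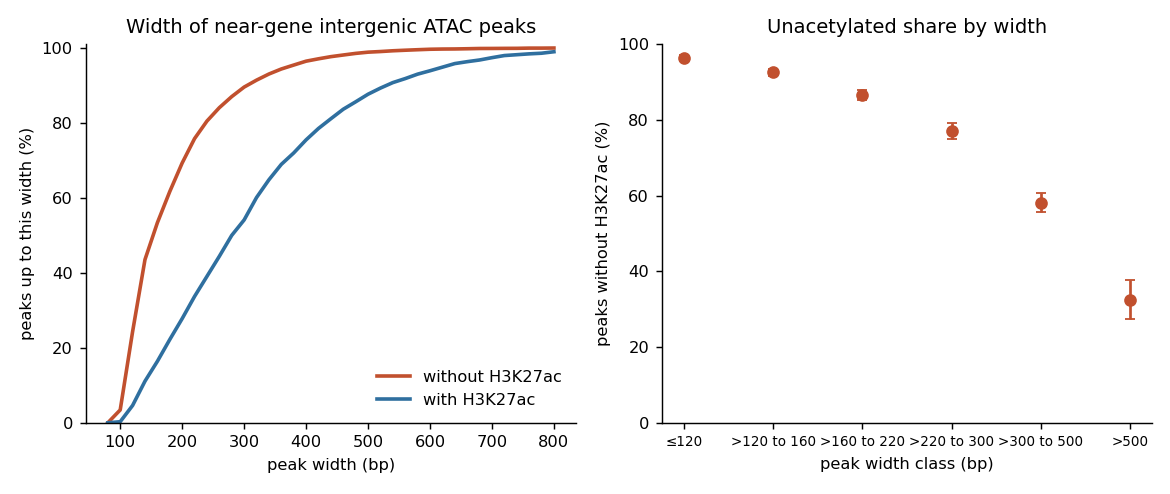
Left, the cumulative share (%) of near-gene intergenic ATAC peaks up to each width (bp), for peaks without and with H3K27ac. Right, the share (%) without H3K27ac in each width class, with 95% Wilson intervals (counting error only): it was 96.3% up to 120 bp and 32.3% over 500 bp.

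The distance to genes was nearly the same for both classes. Elements lay a median of 16.7 kb from the nearest gene end (quartiles 6.71 and 37.4 kb), against 17.6 kb for acetylated peaks (6.79 and 42.4 kb). The share without H3K27ac ranged between 81.6% and 84.6% over 5 classes of distance, the lowest at 50 to 100 kb and the highest at 10 to 20 kb. Of the 7012 elements next to a gene with a known strand, 3480 lay on its 5′ side (49.6%, interval 48.5 to 50.8%), against 629 of 1353 acetylated peaks (46.5%, interval 43.8 to 49.2%). For 61.6% of the elements the end of the next gene was more than 2 times as far away, and for 22.7% it lay within 1.5 times the distance, where the assignment to a gene is least certain. At the limits of the rule, 54 elements lay less than 100 bp beyond the 1 kb limit and 98 lay over 95 kb from the gene.

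The distance of the elements to the nearest H3K27ac peak is in part set by the rule, which left out every overlap. The nearest H3K27ac peak was a median of 30.9 kb away (quartiles 11.9 and 70.0 kb). It lay within 1 kb of 4.86% of the elements, within 10 kb of 21.7% and within 50 kb of 65.2%. Within 100 kb it lay for 84.5%, so 1377 elements were farther than 100 kb. An acetylated near-gene peak lay within 5 kb of 3.19% of them. Close to the overlap limit, 20 elements had an H3K27ac peak within 10 bp and 3 touched one. Just across the limit, 13 acetylated peaks shared 10 bp or less with H3K27ac and 226 had less than 50% of their bases covered, while 1244 were covered whole. Unacetylated peaks inside genes lay nearer to the mark, at a median of 24.995 kb, and those beyond 100 kb lay farther, at 111 kb.

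The genes next to the elements carried H3K27ac at their ends in a smaller share of cases than the genes next to acetylated peaks. The mark was within 1 kb of either end of the nearest gene for 54.2% of the elements (interval 53.2 to 55.2%). This compares with 69.6% of the acetylated peaks (interval 67.4 to 71.7%), 65.1% of all ATAC peaks and 49.3% of all 21887 protein-coding genes. For unacetylated peaks inside genes the share was 55.4%, and for those beyond 100 kb it was 58.5%. A share below that of acetylated peaks is thus not particular to the elements. An open end without the mark was next to 17.6% of the elements (interval 16.8 to 18.4%), 9.92% of the acetylated peaks (interval 8.61 to 11.4%), 17.6% of all ATAC peaks and 19.4% of the unacetylated peaks inside genes, and was found in 12.7% of all genes. The value of the elements is thus that of all ATAC peaks. Neither mark stood at an end of the nearest gene for 28.2% of the elements and 20.5% of the acetylated peaks, and in 38.1% of all genes.

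At least 1 element was assigned to 5286 genes, or 24.2% of all, and 3290 of these had exactly 1. Per gene the mean was 0.405 elements and 0.0811 acetylated peaks, and the median was 0. At least 5 elements were assigned to 185 genes (0.845%). Of these, 158 genes (0.722%) had at most 1 acetylated peak, 123 of them none, and the other 27 had more. The 158 genes held 973 elements. Around the limit of 5, 98 genes had exactly 5 elements and 174 had exactly 4. The intergenic territory of the 158 genes, the bases between genes that lie nearest to their ends within the limits of the rule, had a median of 104 kb. For all genes it was 17.0 kb. The part of this territory in the counts was not tested. H3K27ac was at an end of 90 of the 158 genes (57.0%, interval 49.2 to 64.4%), against 49.3% of all genes, and ATAC at an end of 117 (74.1%, interval 66.7 to 80.3%), against 60.4% of all genes. No H3K27ac peak at all, at an end or inside the gene, was found at 51 of the 158. The same count was not made over all genes, so whether it is high or low cannot be told.

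**Figure D2:**
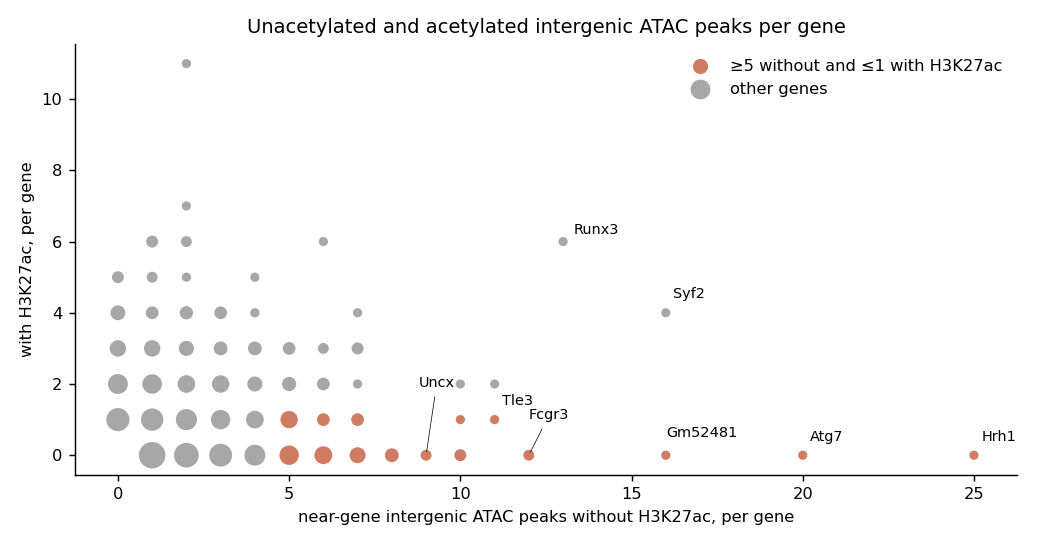
Each dot is a combination of the number of near-gene intergenic ATAC peaks without H3K27ac (x axis) and with H3K27ac (y axis) per gene, with an area that grows with the log2 number of genes; genes with neither are left out. Hrh1, Atg7 and Gm52481 had 25, 20 and 16 peaks without H3K27ac and none with it, and Runx3 had 13 without and 6 with it.

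Gene lists differed in how many elements and acetylated peaks they held. The 22 genes of dorsal spinal cord interneurons had the highest mean of the 21 gene lists, 2.45 elements and 0.136 acetylated peaks per gene (54 elements and 3 acetylated peaks). Of the 22, 18 had an element (81.8%, against 24.2% of all genes). Their median territory was 99.4 kb, against 17.0 kb for all genes, and its part in the counts was not tested. H3K27ac was at an end of 2 (9.09%, against 49.3% of all genes), while 15 were open at an end (68.2%, against 60.4%). The homeobox genes Lbx1, Lmx1a and Lmx1b, which specify dorsal interneurons and the roof plate, had 6 elements and 0 acetylated peaks each. Pax7, a paired-box gene of the dorsal neural tube and of muscle progenitors, had 5 and 0. None of these 4 genes had H3K27ac at an end.

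Around Lbx1, the elements lay 11.4, 11.9 and 16.2 kb from the left end and 7.68, 46.7 and 56.9 kb from the right end, with widths of 120 to 394 bp. H3K27ac lay 6.84 kb from the rightmost of them and 84.2 kb from the leftmost. Around Pax7, the elements lay 11.4 and 25.9 kb from the 3′ end and 25.3, 39.3 and 43.9 kb from the 5′ end. Their distance to the nearest H3K27ac peak was 71.1 to 102 kb. At Lmx1b, by comparison, an element lay 9 bp and another 52 bp from an H3K27ac peak, just outside the overlap limit.

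The motor neuron and ventral spinal cord list held 32 elements and 0 acetylated peaks over 20 genes, 15 of them with an element. Foxa2, the floor plate forkhead factor, had 4 elements at 1.64, 35.5, 65.2 and 67.9 kb, all on its 5′ side and 211 to 277 kb from H3K27ac. Irx3, an Iroquois homeobox gene, also had 4, and En1 and Gata3, of ventral interneurons, had 3 each. H3K27ac was at an end of 2 of the 20 genes and ATAC at an end of 12, or 60.0%, about the 60.4% of all genes.

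The skeletal muscle and sclerotome list had 37 elements and 5 acetylated peaks over 20 genes, and the 5 acetylated peaks were all at Mef2c, which had 4 elements. Uncx, a homeobox gene of the sclerotome, had 9 elements and 0 acetylated peaks, at 7.46, 8.19 and 21.6 kb on its 5′ side and at 10.8, 20.05, 24.6, 50.7, 63.0 and 71.5 kb on its 3′ side. H3K27ac was at an end of Uncx, and 1 element lay 2 bp from an H3K27ac peak. Meox1 and Tcf15, factors of the somite, had 4 and 0 each.

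The endothelium and mural cell list had 28 elements and 1 acetylated peak over 17 genes, with H3K27ac at an end of 1 gene (5.88%, against 49.3% of all genes). Cdh5, which encodes vascular endothelial cadherin, had 7 elements and 0 acetylated peaks, and neither an ATAC nor an H3K27ac peak at an end or inside it. Tbx2, a T-box gene, had 5, all between 1.57 and 9.01 kb away. Kdr, which encodes the receptor of vascular endothelial growth factor, and Erg, an ETS factor of vessels, had 3 each. The limb, heart and endoderm list had 32 elements and 1 acetylated peak over 22 genes. Hand2, the basic helix-loop-helix factor of limb and heart, had 5 elements, at 4.21, 9.52, 16.6, 29.2 and 29.6 kb, all on its 3′ side and 132 to 158 kb from H3K27ac. The blood and immune list had 2 elements and 1 acetylated peak over 15 genes, a mean of 0.133 elements per gene against 0.405 over all genes.

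**Figure D3:**
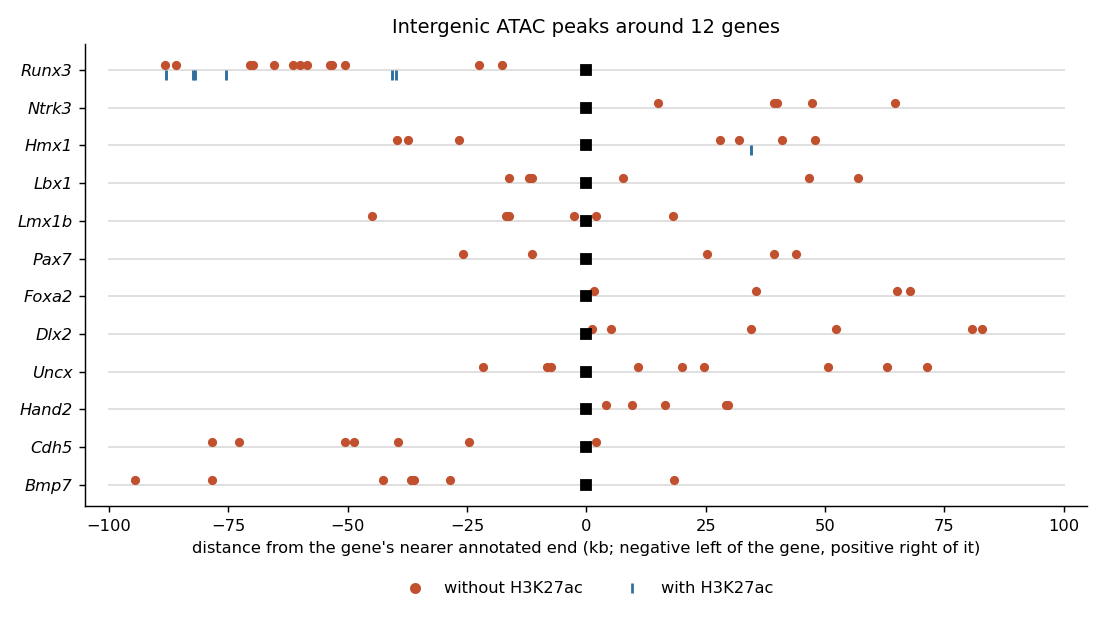
Positions of near-gene intergenic ATAC peaks without H3K27ac (dots) and with it (bars) assigned to 12 genes, as distance (kb) from the nearer gene end, the gene being drawn as a square. The genes were picked after their values were seen; Lbx1, Pax7, Foxa2, Hand2, Cdh5 and Bmp7 have dots only, and Runx3 has 13 dots and 6 bars.

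Among genes of forebrain, midbrain and eye, Dlx2, a homeobox gene of inhibitory forebrain neurons, had 6 elements and 0 acetylated peaks, all on its 5′ side at 1.27 to 82.8 kb. Eomes, Nkx2-1 and Pax6, further patterning factors of the brain, had 3 and 0 each. The list had 39 elements and 9 acetylated peaks over 26 genes. Of the secreted ligands, 33 Wnt, BMP, FGF and hedgehog genes, 18 had an element (54.5%, against 24.2% of all genes). The 33 genes held 35 elements and 8 acetylated peaks in all, with a median territory of 42.2 kb, against 17.0 kb for all genes. Bmp7 had 7 elements and 0 acetylated peaks at 18.4 to 94.7 kb. Wnt7b had 5 elements and 2 acetylated peaks, and Wnt11 had 3 and 2.

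The sensory neuron lists differed among themselves. The sensory transcription factor list had 33 elements and 20 acetylated peaks over 23 genes. H3K27ac was at an end of 19 of its genes (82.6%, against 49.3% of all genes). Hmx1, a homeobox gene of sensory ganglia, had 7 elements and 1 acetylated peak, with 3 elements on its 5′ side and 4 on its 3′ side. The acetylated peak lay 34.6 kb out, between the second and the third of the elements on the same side. Ebf1 and Neurog2, factors of sensory neurogenesis, had 3 elements each. The mechanoreceptor list had 16 elements and 1 acetylated peak over 14 genes, 4 of the elements at Ntrk2, which encodes TrkB. The nociceptor and thermoreceptor list had 7 and 1 over 16 genes. The pan-neuronal list had fewer elements than acetylated peaks, 10 against 14 over 22 genes, and so did the immediate early and dissociation response list, with 22 against 29 over 20 genes. Among these, Ier5 had 7 elements and 2 acetylated peaks, and Fos 3 and 3.

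Both genes that define the sorted lineage held elements. Ntrk3, which encodes the neurotrophin receptor TrkC, had 5 elements and 0 acetylated peaks, at 15.1, 39.4, 40.05, 47.4 and 64.7 kb from its right end. Their widths were 130, 333, 120, 207 and 274 bp, and H3K27ac lay between 361 bp and 8.30 kb from them. Inside Ntrk3 lay 7 ATAC and 4 H3K27ac peaks, so the gene did not lack the mark. Runx3, the transcription factor whose BAC drives the GFP, had 13 elements and 6 acetylated peaks, all on its 5′ side. The elements lay 17.8 to 88.4 kb out with widths of 100 to 481 bp, and 9 of them formed 1 run over 20217 bp in which neighbours were no more than 5 kb apart. Inside Runx3 lay 13 ATAC and 3 H3K27ac peaks. Since the BAC adds copies of part of this locus, the extent of which the labels do not give, these counts and the chromatin of 1 endogenous locus cannot be told apart.

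Set beside all genes, 17 of the 21 lists had a higher mean number of elements per gene than the 0.405 of all genes. Per Mb of intergenic territory, 13 lists were above the 10.5 elements of all genes. The highest were skeletal muscle and sclerotome with 27.8, endothelium and mural cells with 25.1 and dorsal spinal cord interneurons with 24.9 elements per Mb. The lists above all genes were not the same by both measures. Pan-neuronal, mechanoreceptor, nociceptor, glia and neural crest, axon guidance and ion channel genes were above by mean but below per Mb. Hox and housekeeping genes were below by mean but above per Mb, where both exceeded sensory transcription factors and proprioceptors. The share of near-gene intergenic peaks without H3K27ac was above the 83.3% of all genes in 8 lists. These were motor neurons and ventral spinal cord with 100%, limb, heart and endoderm with 97.0%, endothelium with 96.6%, dorsal interneurons with 94.7%, mechanoreceptors with 94.1%, skeletal muscle and sclerotome with 88.1%, and nociceptors and cadherins with 87.5% each. Forebrain, midbrain and eye genes (81.3%) and the ligands (81.4%) were slightly below all genes, and the lowest were sensory transcription factors with 62.3%, Hox genes with 61.1%, housekeeping genes with 57.1%, immediate early genes with 43.1% and pan-neuronal genes with 41.7%. The remaining lists had 28 elements and 9 acetylated peaks over 17 TALE homeobox and zinc finger genes, 20 and 5 over 19 genes of glia and neural crest, 25 and 8 over 32 axon guidance genes, 13 and 3 over 24 ion channel genes, 28 and 8 over 16 proprioceptor genes, 8 and 6 over 23 housekeeping genes, 11 and 7 over 39 Hox genes and 7 and 1 over 21 cadherin and protocadherin genes. Runx3 gave 13 of the 28 elements and 6 of the 8 acetylated peaks of the proprioceptor list. Without chromosomes X and Y and the stretch upstream of Runx3, the mean of that list was 0.938 elements per gene, against 1.75 with them.

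**Figure D4:**
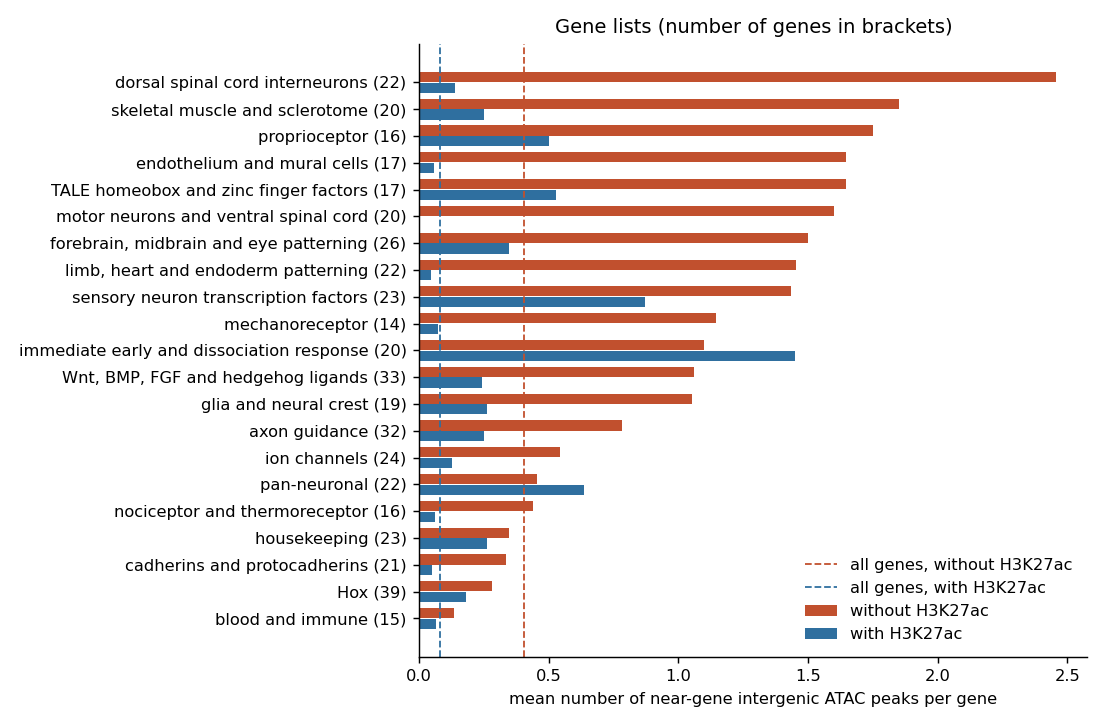
Mean number of near-gene intergenic ATAC peaks per gene without and with H3K27ac for the 21 gene lists, with the number of genes in brackets; dashed lines give the means of all genes (0.405 and 0.0811). Dorsal spinal cord interneuron genes had the longest bar without H3K27ac (2.45), and immediate early and pan-neuronal genes had the longer bar with it.

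The highest counts per gene lay in a few dense stretches. The highest count was at Hrh1, the histamine H1 receptor gene, with 25 elements and 0 acetylated peaks, and next was Atg7, an autophagy gene, with 20 and 0. Both belong to 1 stretch between these genes, chr6:114483299-114643126 (GRCm38), which held 45 elements and 0 acetylated peaks in 159.8 kb. The elements there were evenly spaced. The median step between neighbouring midpoints was 2.45 kb, 34 of 44 steps were within 10% of it, and all 44 were within 10% of a step from a whole multiple of it. In the Syf2 to Runx3 stretch, by the same measure around its own median step, 7 of 28 steps were. The nearest H3K27ac was 10.7 kb away, and no tRNA, rRNA or snRNA gene is annotated in the stretch. Whether the stretch is a tandem repeat could not be read, since no genome sequence was used.

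Other dense stretches stood on arrays of short RNA genes. Between Gas8, of the motile cilium, and Rhou, 19 elements and 0 acetylated peaks lay on chromosome 8 in a stretch with 48 annotated rRNA genes, and 16 of the elements overlapped one. The rRNA genes are spaced a median of 1698 bp apart, and 17 of the 18 steps between elements were within 10% of that spacing from a whole multiple of it. Since 16 of the elements lie on these genes, this spacing largely restates the overlap and is not a separate observation. Between Fcgr3, an immunoglobulin receptor gene, and Cfap126 on chromosome 1, 11 of 13 elements overlapped tRNA genes, of which 17 are annotated there, and the stretch held 1 acetylated peak. Between Eapp and Snx6 on chromosome 12, 6 of 9 elements overlapped snRNA genes, of which 7 are annotated.

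The Syf2 to Runx3 stretch held 29 elements and 10 acetylated peaks, the most acetylated among the 7 stretches with at least 13 elements. Those 7 held 146 elements in all. The others were Gm15319 to Gm40469 with 14 elements and 1 acetylated peak, Uncx to Micall2 with 13 and 0, and Tpra1 to Plxna1 with 13 and 2. At the end of chromosome Y, 16 elements were assigned to Gm52481, the last coding gene there. The nearest H3K27ac peak was at least 89493 kb from them, and all 17 near-gene intergenic peaks on Y lacked the mark. The lack of acetylated peaks is thus not particular to this gene. Of all 19697 stretches between coding genes, 4738 held an element and 253 held at least 5, 151 of these without any acetylated peak.

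**Figure D5:**
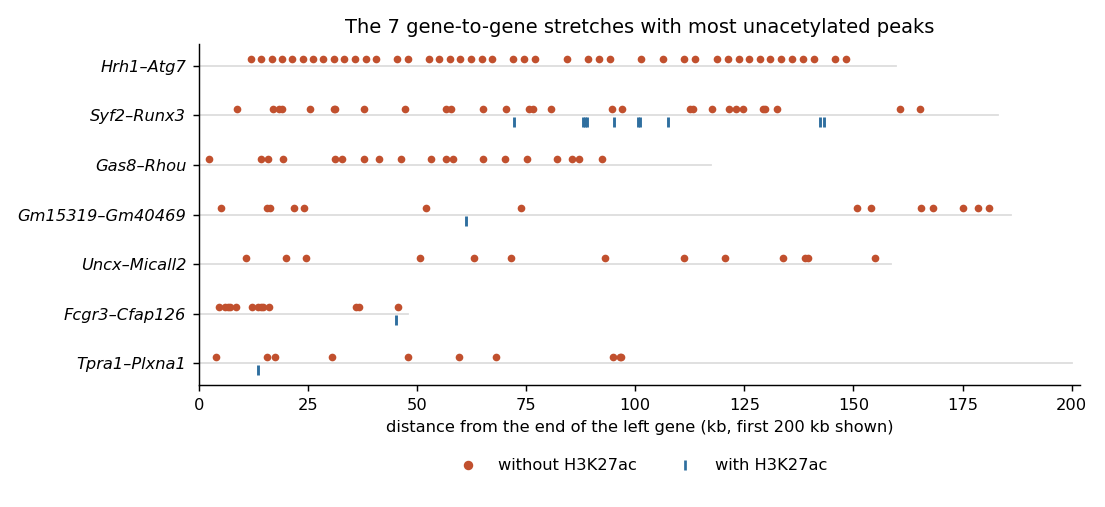
Midpoints of ATAC peaks without H3K27ac (dots) and with it (bars) in the 7 stretches between coding genes with at least 13 peaks without H3K27ac, as distance (kb) from the end of the left gene; the Tpra1 to Plxna1 stretch goes on beyond the 200 kb shown. The 45 dots between Hrh1 and Atg7 are evenly spaced, and the Syf2 to Runx3 stretch has 29 dots and 10 bars.

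Outside these stretches, genes with many elements were of several kinds. Tle3, a corepressor of the Groucho family, had 11 elements and 1 acetylated peak, and Calcoco1, an autophagy receptor gene, had 10 and 0, with H3K27ac at an end of both genes. Cd82, which encodes a tetraspanin, had 9 and 0 with an open end that lacked H3K27ac. Foxl1, a forkhead factor gene of gut mesenchyme, and Mid1, a ubiquitin ligase gene, had 8 and 0. Elements at Mid1, on chromosome X, lay 7.32, 19.2 and 28.1 kb out with widths of 641, 365 and 522 bp. Those at 27.4, 39.8 and 48.5 kb from Gm52481, on chromosome Y, had similar widths in the same order, 628, 366 and 539 bp. Whether both loci share sequence was not tested, so they may not be separate. Among the genes with no acetylated peak and no H3K27ac at an end, Msx2, a homeobox gene of limb and skull, Grik3, a kainate receptor gene, Ajap1, a gene of adherens junctions, and Otos, of the inner ear, had 7 elements each. Tmem121 had 8, and Csf3r, the receptor gene of granulocyte colony-stimulating factor, had 6, all on its 5′ side and 56.4 to 118 kb from H3K27ac.

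A smaller share of elements than of acetylated peaks had a neighbour of their own class. Another element lay within 5 kb of 21.4% of them (interval 20.5 to 22.2%), against 30.3% of the acetylated peaks with another acetylated peak so close (interval 28.2 to 32.5%). By chaining neighbours up to 5 kb apart, 6976 elements stood alone, 730 runs had 2, 89 runs had 3 and 28 runs had 4 or more. The longest run, of 25 elements over 65266 bp, and the second, of 16 over 47165 bp, were both between Hrh1 and Atg7. A run of 5 elements over 7675 bp lay at Tbx2. Elements per Mb of territory ranged over the autosomes between 8.58 on chromosome 16 and 17.3 on chromosome 11, and were 2.87 on X and 0.416 on Y.

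The share on annotated noncoding genes was lower for elements than for acetylated peaks. Any such gene was overlapped by 23.3% of the elements (interval 22.4 to 24.2%) and 35.8% of the acetylated peaks (interval 33.6 to 38.03%), most of it by lncRNA genes (19.4% and 30.8%). A tRNA gene was overlapped by 49 elements (0.552%, interval 0.418 to 0.729%) and 34 acetylated peaks (1.92%, interval 1.37 to 2.66%), and an snRNA gene by 10 and 7. All 16 elements on an rRNA gene were in the stretch between Gas8 and Rhou, and 0 of 1775 acetylated peaks were on one, which by a limit of 3 counts allows a share of up to 0.169%. Genes of the class pseudogene were overlapped by 172 elements (1.94%, interval 1.67 to 2.25%) and 22 acetylated peaks (1.24%, interval 0.820 to 1.87%). For the separate class of transcribed pseudogenes the order was the other way, with 74 elements (0.834%, interval 0.665 to 1.05%) and 27 acetylated peaks (1.52%, interval 1.05 to 2.20%).

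The widest element, of 1336 bp, lay 1.93 kb from Gm3435, and the next, of 1193 bp, lay 26.2 kb from Col19a1, a collagen gene. The one at Col19a1 was in a run of 4 elements over 3813 bp. No list of regions prone to mapping artefacts was applied here, so artefacts among the wide elements cannot be told apart. The element of 1141 bp at Tmem125 was 3.24 kb from the gene and 71.9 kb from H3K27ac. That of 783 bp at Gas1, which encodes a hedgehog co-receptor, was 27.01 kb from the gene and 27.7 kb from H3K27ac.

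Hairpins of 12 microRNAs, of 1005 in the RefSeq table, lay within 500 bp of one of the 8873 elements, against 8 within 500 bp of one of the 1775 acetylated peaks. Elements overlapped 3 of these hairpins, Mir1247, Mir6347 and Mir7671, and acetylated peaks overlapped 6. An annotated miRNA gene was overlapped by 4 elements (0.0451%, interval 0.0175 to 0.116%) and 5 acetylated peaks (0.282%, interval 0.120 to 0.658%), so per peak the share was lower for the elements. The element next to Mir9-3, a gene of miR-9, which is known for its role in neural progenitors, was 287 bp wide, 204 bp from the hairpin and 21079 bp from H3K27ac. The one next to Mir203, known from skin, was 162 bp wide and 47 bp away, and the one next to Mir210, known from hypoxia, was 539 bp wide and 176 bp away. Mature sequences of these 3 and of Mir1247 and Mir6347 are shown, with the seed (bases 2 to 8) in capitals, to say which microRNAs the elements lie beside. The 20 mature sequences of the 12 hairpins have 20 different seeds, so none share one.
mmu-miR-9-5p: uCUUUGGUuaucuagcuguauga
mmu-miR-203-3p: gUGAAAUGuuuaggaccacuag
mmu-miR-210-3p: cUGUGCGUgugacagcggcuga
mmu-miR-1247-5p: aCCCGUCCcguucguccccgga
mmu-miR-6347: cAGUGCGGcuggcuggagaugc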

How the data were processed

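ATAC-seq and H3K27ac ChIP-seq of sorted neurons were available as 2 lists of start and end positions in bp, 1 deposited by the authors for each assay as a consensus over replicates. Bowtie2 2.3.5.1, cutadapt 1.18, MACS2, bedtools and the mm10 build were used, per the submitters' processing notes. How the consensus was formed, and with which thresholds, is not given in the sources used here, and the input libraries were not used. A consensus keeps what a rule finds in the replicates, so weak peaks of a single replicate may be missing from either list.

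Positions were counted from 1 and analysed on chromosomes 1 to 19, X and Y (43652 ATAC and 19924 H3K27ac peaks). Genes were the 21887 RefSeq protein-coding genes of GRCm38.p6, whose assembly is that of mm10. Each ATAC peak was assigned by its midpoint to the nearest gene end, in Python 3.11.15 with pandas 2.3.3 and numpy 2.4.6; strand was known for 17492 genes. The interval functions were tested on simulated data. Shares have 95% Wilson intervals from scipy 1.17.1. All 461 entries of the 21 gene lists matched by symbol; some genes stand in more than 1 list. The elements, lists and rules were chosen with earlier results of these data known. The genes that could be named were the 20 with most elements, the 20 with most elements among genes without acetylated peaks or H3K27ac at an end, up to 4 per list, Runx3, Ntrk3, the genes at the 10 longest runs and the 10 widest elements; not all are printed, and the genes at the dense stretches, the lncRNA starts and the microRNAs were added after their values were seen. Motifs were searched in RefSeq promoter windows only, since no genome sequence was used.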

Additional observations from a re-analysis of the deposited data

How the results depend on the processing

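Of 88 recomputed values over 9 results, 65 stayed within 1.5 times of a count or within the 95% interval of a share or median. With the wider 50% of each list, the elements numbered 2811, the genes with an element 2175, the genes with at least 5 elements and at most 1 acetylated peak 14, the unacetylated share was 81.3%, the median width 293 bp, the median distance 19.04 kb, the share next to a gene with H3K27ac at an end 38.3% and the share with another element within 5 kb 7.33%. In that setting fewer peaks enter by construction. With the ends of all annotated genes, noncoding ones included, these were 40 genes with at least 5 elements and at most 1 acetylated peak, 85.8% unacetylated, 9.88 kb, 29.5% and 17.5%. The number of such genes was 75 within 50 kb, 306 within 500 kb, 314 with at least 4 elements and 18 with at least 8. The unacetylated share was 82.5% with a window of 0.5 kb, 79.3% when H3K27ac within 1 kb counted as overlap and 85.5% when 50% of the peak had to be covered. The median distance was 18.98 kb with a window of 2.5 kb and 12.3 kb within 50 kb. The cause of these differences was not tested. The median width of elements was below that of acetylated peaks, and the share next to a gene with H3K27ac at an end was lower than that of acetylated peaks, in all 14 settings compared. All settings cut the same 2 lists, and H3K27ac set the classes in each, so they are not independent checks.

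Alternatives chosen after seeing the data left out the 8 stretches with at least 13 elements, among them the end of chromosome Y, which lowered the share with another element within 5 kb to 20.2%. They also left out the peaks on tRNA, rRNA or snRNA genes (75 elements), or X, Y and the Syf2 to Runx3 stretch, and 17 of 21 lists stayed above all genes in each. That count was 13 per Mb of territory, 15 within 50 kb, 16 with the 1 kb limit on H3K27ac and 19 with the wider 50%. The lists counted were not always the same. Hox and housekeeping genes were above all genes per Mb and with the wider 50%, but not in the main setting.

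No paired analysis was possible because each assay has 1 consensus list, with no column per replicate; leaving out a replicate was not possible for the same reason. Depth and signal are unknown, so a peak missed by the H3K27ac list and a site without the mark cannot be told apart.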
